A study of Mus musculus with 18 samples.

Results

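The 39 mouse Hox cluster genes are described here over 7 groups of RNA sequencing libraries, by cluster (a to d) and by paralog number (1 to 13). They are the genes whose symbol is Hox, a cluster letter and a number, and all 39 are listed in both count tables, out of 54567 symbols in either table. The Hoxa cluster holds 11 of them on chr6:52155590-52260880, Hoxb 10 on chr11:96194316-96368256, Hoxc 9 on chr15:102921103-103036852 and Hoxd 9 on chr2:74668310-74765142 (GRCm38, GENCODE vM21). By position, 8 are anterior (paralogs 1 to 3, at the 3′ end of a cluster), 15 central (4 to 8) and 16 posterior (9 to 13, at the 5′ end).

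Hox genes encode homeodomain transcription factors that give cells their identity along the body axis. Within a cluster, genes at the 3′ end act earlier and further forward in the embryo than genes at the 5′ end, a rule known as collinearity, and Polycomb proteins keep the clusters silent in embryonic stem (ES) cells. The neural crest of the first pharyngeal arch, which forms the jaws and contributes to the teeth, is known to lack Hox expression, while crest of the second and more posterior arches expresses Hox genes of the anterior paralog groups.

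All groups derive from a mouse ES line with a tdTomato reporter at Msx1, a homeobox gene of craniofacial mesenchyme, and each group has 2 libraries. At day 2 the groups are embryoid bodies (EBs) of a line with inducible Dlx2 and EBs of a line with inducible GFP, both grown in hanging drops with 1 µg/ml doxycycline, the inducer. At days 8 and 16 the groups are Msx1+ and Msx1- cells that were sorted from induced EBs of the Dlx2 line, so the sorted fractions have no GFP counterpart, and the reference for all 4 is a group labelled ES, wild type and untreated. The day-2 columns name the line but not doxycycline, so their place in the induced groups rests on the study's stated comparison of overexpressing EBs. The labels do not say whether an induced line is 1 clone or whether replicate libraries came from separate cultures, so p-values measure the spread between these libraries, which may be technical. The 4 uninduced samples among the 18 labelled were not analysed here.

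The targeted gene was checked first. Dlx2 stood at 4344 and 4720 CPM (counts scaled to the size of the library, with TMM factors) in Dlx2 EBs, against 0.0812 and 0.0808 CPM in GFP EBs. It stood at 1137 and 1270 CPM in day-8 Msx1+ cells, 269 and 272 CPM in day-8 Msx1- cells, 288 and 341 CPM in day-16 Msx1+ cells and 131 and 146 CPM in day-16 Msx1- cells. The 2 libraries labelled ES had 219 and 222 CPM of Dlx2, which goes against a wild-type, untreated label, and they are called by their label throughout. Both carried Pou5f1, a defining ES cell factor, at 750 and 773 CPM. The day-2 libraries held between 26211608 and 41552818 counts each, and the sorted and ES-labelled libraries between 53797597 and 107770730. Among genes with 4 to 19 counts, 52.5% to 54.1% of counts were even at day 2, against 65% to 69.9% in the other table, so a molecule may be counted more than once there and counting limits are optimistic. The kit does not mark the strand, and 10 of the 39 genes share exon sequence with a gene on the other strand, so those reads cannot be told apart. In all, 16 members share exon sequence with another gene. These are bulk samples, in which fewer cells of a type and less RNA per cell cannot be told apart.

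The clusters also encode microRNAs that act on Hox transcripts, and their mature sequences are shown because the rows of their hairpins were counted beside the protein-coding members. Capitals mark the seed (bases 2 to 8, counted from the 5′ end), and the sequences are from RefSeq on GRCm38.p6.
mmu-miR-10a-5p: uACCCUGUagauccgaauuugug
mmu-miR-10b-5p: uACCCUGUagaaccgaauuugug
mmu-miR-196a-5p: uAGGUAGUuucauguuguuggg
mmu-miR-196b-5p: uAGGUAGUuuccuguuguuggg
The miR-10 pair shares the seed ACCCUGU and the miR-196 sequences share AGGUAGU. Mir10a lies between Hoxb5 and Hoxb4, Mir10b within the span of Hoxd4, Mir196a-1 between Hoxb13 and Hoxb9, Mir196a-2 between Hoxc10 and Hoxc9, and Mir196b within the span of Hoxa9. The miR-196 family is known in mouse to direct cleavage of the Hoxb8 transcript.

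Promoters are shown for 2 genes that moved in opposite directions at day 2, Hoxb1, which fell with Dlx2, and Hoxd11, which rose and was at 0 counts with GFP. Hoxd11 was picked with its motifs known: it was not the member that rose most, among the members' windows its own alone hold TAATTA, and the windows of Hoxa11, also at 0 counts with GFP, and of Hoxd9 and Hoxd13 held none of the 4 motifs searched. Each run is the 250 bases before a RefSeq start on GRCm38.p6, plus strand, and Hoxd11 has 2 starts. Capitals mark TAATTA, a core that Dlx proteins are known to bind, and TGATNNAT, a site of Pbx-Hox dimers, either of them on either strand.
Hoxb1, chr11:96365508-96365757: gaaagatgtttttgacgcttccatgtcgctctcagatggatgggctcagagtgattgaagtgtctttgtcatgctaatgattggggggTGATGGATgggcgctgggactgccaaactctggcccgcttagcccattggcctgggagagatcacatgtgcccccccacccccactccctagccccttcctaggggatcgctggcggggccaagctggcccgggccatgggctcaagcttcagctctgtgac
Hoxd11 start 1, chr2:74679308-74679557: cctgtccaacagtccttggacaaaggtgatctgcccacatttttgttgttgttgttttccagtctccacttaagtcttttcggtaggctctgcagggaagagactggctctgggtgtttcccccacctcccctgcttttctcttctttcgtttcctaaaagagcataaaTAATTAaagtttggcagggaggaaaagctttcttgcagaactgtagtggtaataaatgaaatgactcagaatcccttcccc
Hoxd11 start 2, chr2:74682073-74682322: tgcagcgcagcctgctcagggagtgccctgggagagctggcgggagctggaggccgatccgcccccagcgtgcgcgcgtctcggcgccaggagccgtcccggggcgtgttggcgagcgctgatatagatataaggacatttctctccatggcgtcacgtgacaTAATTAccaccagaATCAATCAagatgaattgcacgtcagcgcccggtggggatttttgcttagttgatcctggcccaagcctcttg
Of the 39 members, 22 have such a window, and with alternative starts there are 24. TAATTA was in 2 of the 24 (8.33%), both of Hoxd11, against 4.84% of all 32851 windows of this length. TGATNNAT was in 4 (16.7%), of Hoxa2, Hoxb1, Hoxb8 and Hoxd11, against 7.68% of all windows. TTTATGG, a site of Cdx proteins, was in 1 (4.17%), of Hoxd4, against 2.43%. AGGTCA, the half-site of retinoic acid receptors, was in 6 (25%), of Hoxb4, Hoxc4, Hoxd3, Hoxd4, Hoxd8 and Hoxd10, against 14% of all windows. The motifs were searched on both strands with no overlap between different motifs removed, and a match is a description of the letters only.

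The summed level of the 39 genes was lowest in the libraries labelled ES, and it was higher in Dlx2 EBs than in GFP EBs and in Msx1+ than in Msx1- cells. It reached 94.3 and 101.9 CPM in Dlx2 EBs, against 23.8 and 22.5 CPM in GFP EBs. At day 8 it reached 93.0 and 100.6 CPM in Msx1+ cells, against 21.8 and 21.9 CPM in Msx1- cells, and at day 16 it reached 287.2 and 287.6 CPM in Msx1+ cells, against 61.1 and 63.2 CPM in Msx1- cells. The libraries labelled ES had 11.1 and 10.9 CPM. No pair of groups overlapped within a table. The 2 tables were normalised separately, so levels at day 2 and later stand side by side without a test.

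**Figure D1:**
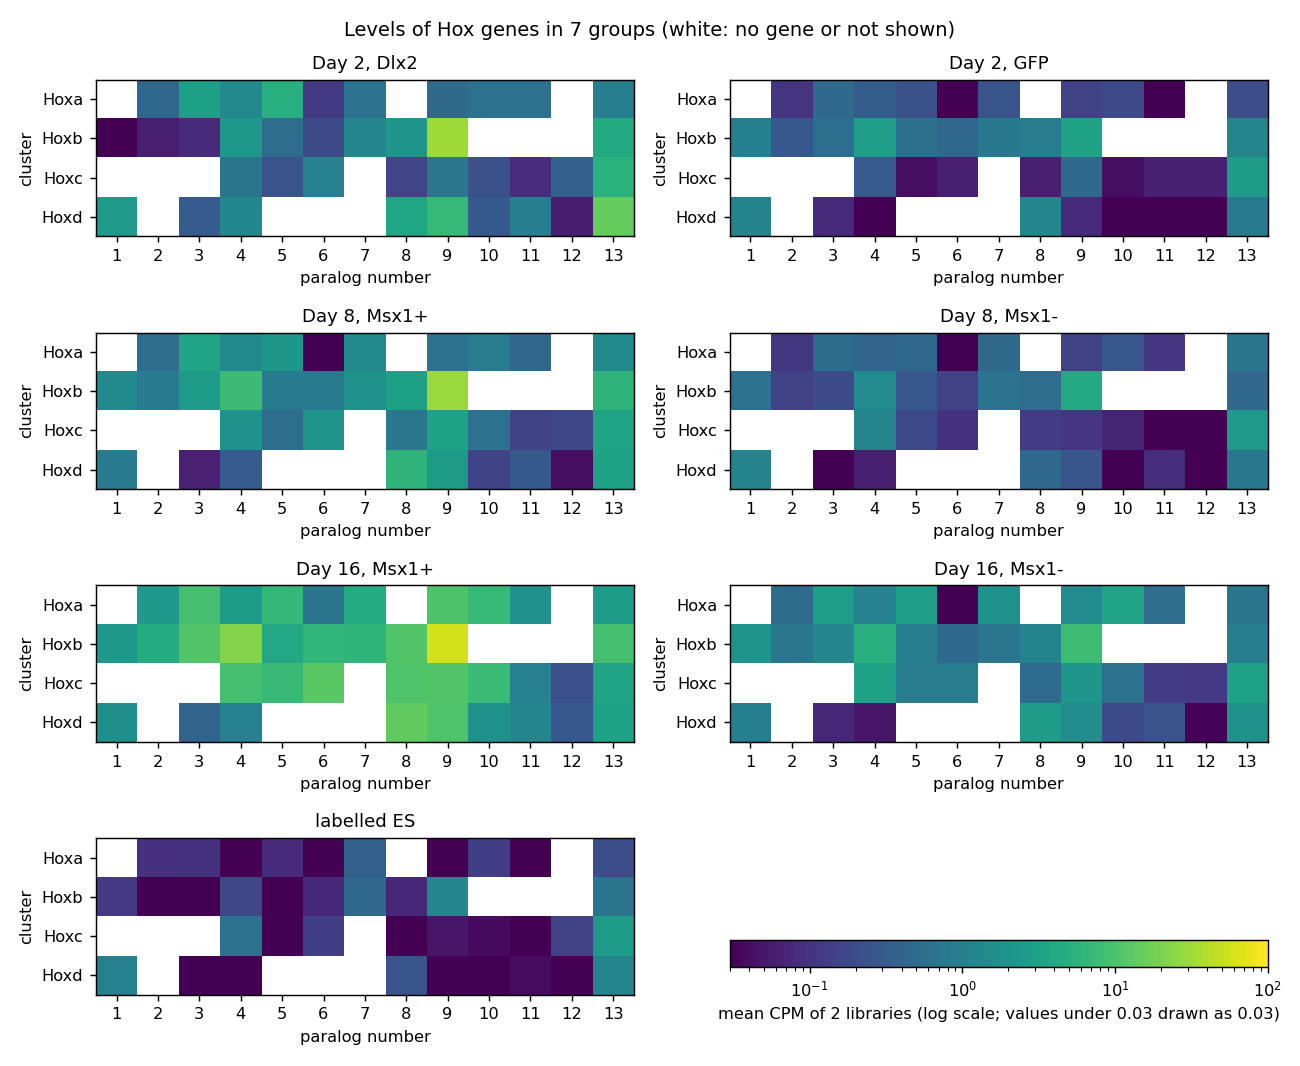
Each panel is a group, with paralog number 1 to 13 across and clusters a to d down. Colour gives the mean CPM of 2 libraries on a log scale, with values under 0.03 drawn as 0.03 and white where there is no gene or none is shown. Hoxb9 is the brightest cell in Dlx2 EBs, in Msx1+ cells and in Msx1- cells, and the Hoxb and Hoxc rows fill with colour in day-16 Msx1+ cells.

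The share of the clusters in that sum differed between groups. Hoxb genes gave 43.2% and 43.6% of it in Dlx2 EBs and 46.8% and 56.2% in GFP EBs, while Hoxd genes gave 31.3% and 31.4% in Dlx2 EBs and 16.6% and 12.7% in GFP EBs. In Msx1+ cells Hoxb genes gave 56.5% and 56.4% at day 8, against 40.3% and 38.9% in Msx1- cells, and at day 16 48.4% and 47.1% in Msx1+ cells, against 33.6% and 35.2% in Msx1- cells. Hoxa genes gave a larger part in Msx1- cells, with 16.7% and 16.1% in Msx1+ cells against 28.5% and 28.5% in Msx1- cells at day 8. Hoxc genes gave 21.3% and 22.3% in Msx1+ cells at day 16, against 13.1% and 13.5% in the same fraction at day 8. By position, posterior members gave 70.2% and 69.7% of the sum in Dlx2 EBs, against 33.3% and 45.4% in GFP EBs. Of the posterior members, Hoxb9 alone gave 31.9% and 33.0% in Dlx2 EBs, against 11.9% and 15.8% in GFP EBs. In the later table the posterior share ran from 38.0% in a day-16 Msx1- library to 58.3% in a library labelled ES. Anterior members gave 9.24% and 9.06% in Dlx2 EBs, against 29.7% and 21.2% in GFP EBs.

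**Figure D2:**
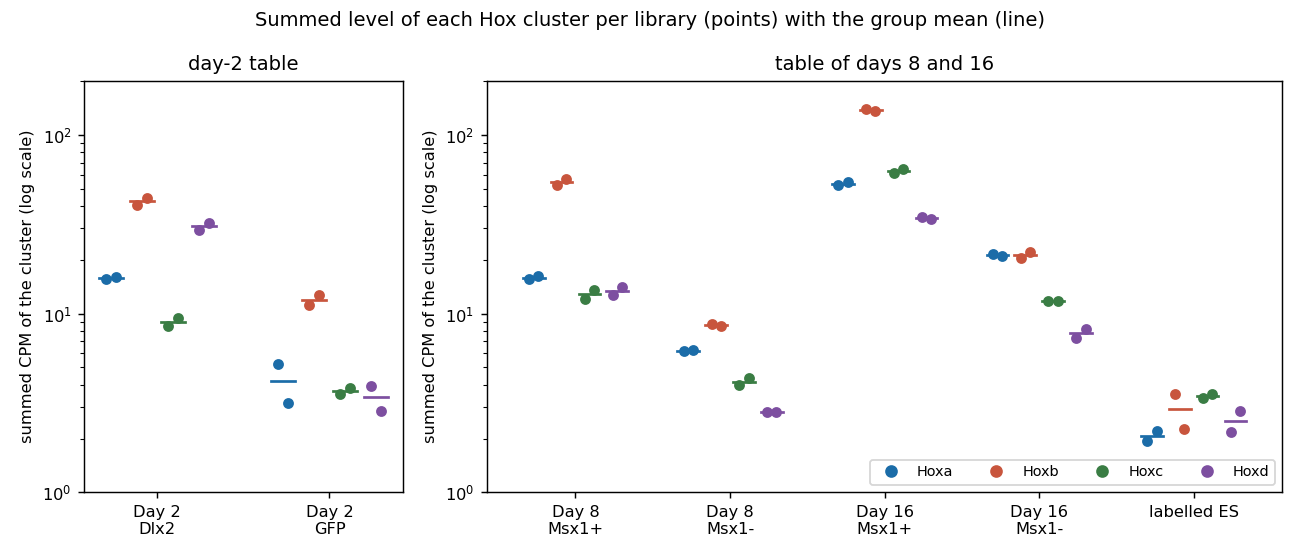
Summed CPM of each Hox cluster (log axis), with a point per library and a line at the mean of 2, for the day-2 table on the left and the other table on the right. In every cluster both Dlx2 points lie above both GFP points and both Msx1+ points above both Msx1- points of the same day.

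Hoxb9, known for its part in thoracic identity, was the leading member per kilobase of exon in 6 of the 7 groups. Its level per length was 12.4 CPM per kilobase in Dlx2 EBs and 1.24 in GFP EBs. It was 11.4 in Msx1+ cells and 1.59 in Msx1- cells at day 8, and 23.4 in Msx1+ cells and 3.16 in Msx1- cells at day 16. In libraries labelled ES the leader was Hoxc13, a regulator of hair formation, at 1.01 CPM per kilobase, with Hoxd1 at 0.558 and Hoxb9 at 0.501. The leading Hoxa member was Hoxa5, known for lung development, in Dlx2 EBs (2.59 CPM per kilobase) and day-16 Msx1+ cells (3.51). In the Hoxc cluster Hoxc13 led in Dlx2 EBs (2.20), GFP EBs (1.05), Msx1+ (1.41) and Msx1- (0.969) cells at day 8 and Msx1- cells at day 16 (1.27), while Hoxc6 led in day-16 Msx1+ cells (5.24). In the Hoxd cluster Hoxd13, a gene of digits and the genital bud, led in Dlx2 EBs (5.93) and Hoxd8 in Msx1+ cells at day 8 (2.16) and day 16 (5.09). The median level per length of the anterior, central and posterior members was 0.165, 0.426 and 0.288 CPM per kilobase in Dlx2 EBs, and 0.107, 0.119 and 0.047 in GFP EBs. In day-16 Msx1+ cells these medians were 1.30, 3.51 and 1.35, against 0.381, 0.447 and 0.306 in Msx1- cells, so the central genes had the highest median in both.

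At day 2, which addresses the early effect of Dlx2 overexpression, the posterior genes Hoxb9 and Hoxd13 and the Hoxd cluster rose in Dlx2 EBs while Hoxb1 and Hoxb3 fell. Here 28 of the 39 members passed edgeR's filter on low counts. Of these, 21 rose and 2 fell (edgeR's quasi-likelihood test, Benjamini-Hochberg adjusted p below 0.05 over all 18650 genes), against 34.1% and 33% of all genes tested. A member could pass the filter through the group where it was high, so these counts are a description. With 1 CPM required in 2 libraries, 16 members were tested and 13 rose and 0 fell, Hoxb1 and Hoxb3 being left untested, and DESeq2 called 16 higher and 2 lower. Members left untested were Hoxa6, Hoxb2, Hoxb6, Hoxc5, Hoxc8, Hoxc10, Hoxc11, Hoxc12, Hoxd3, Hoxd10 and Hoxd12, which had at most 0.687 CPM in any day-2 library.

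Hoxb9 had 30.1 and 33.7 CPM in Dlx2 EBs, against 2.84 and 3.55 CPM in GFP EBs. Both Dlx2 libraries were above both GFP libraries, and the log2 fold change was 3.31 ± 0.12 (SE; adjusted p = 2.62e-16). Hoxd13 had 14.7 CPM in each Dlx2 library, against 0.609 and 1.05 CPM in the GFP libraries (log2 fold change 4.14 ± 0.19, adjusted p = 1.82e-14). Hoxd9, a gene of limb and lumbar patterning, had 6.58 and 7.32 CPM in Dlx2 EBs, against 0.0812 and 0.0808 CPM in GFP EBs (log2 fold change 6.35 ± 0.35, adjusted p = 3.15e-13). The same GFP levels stood for 4 counts of Dlx2 over the group, so the size of this change rests on few GFP counts. Hoxc13 had 5.01 and 5.82 CPM in Dlx2 EBs, against 2.48 and 2.67 CPM in GFP EBs (log2 fold change 1.07 ± 0.19, adjusted p = 3.52e-05). In all 4 genes the groups stood apart by more than the spread within a group.

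All 6 Hoxd members that could be tested rose, Hoxd1, Hoxd4, Hoxd8, Hoxd9, Hoxd11 and Hoxd13. Hoxd11, a forearm gene whose promoter windows hold TAATTA, had 0.930 and 0.984 CPM in Dlx2 EBs and no count in GFP EBs, which is at least 15.7-fold higher if the GFP group is set to a floor of 3 counts. Hoxd4, a gene of the hindbrain and neck, had 105 counts over the Dlx2 libraries and 1 over the GFP libraries, a ratio of 65.9 with a 95% exact counting interval of 11.6 to 2630. In the Hoxa cluster 9 of 10 tested members rose. Hoxa5 had 4.78 and 4.95 CPM in Dlx2 EBs, against 0.284 and 0.162 CPM in GFP EBs (log2 fold change 4.42 ± 0.33). Hoxa11, another forearm gene, had 0.590 and 0.637 CPM in Dlx2 EBs and no count in GFP EBs, or 48 counts against 0.

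The Hoxb cluster was mixed. Hoxb8, Hoxb9 and Hoxb13 at its 5′ end rose, Hoxb4, Hoxb5 and Hoxb7 did not pass the test, and Hoxb1 and Hoxb3 at its 3′ end fell. Hoxb1, which marks the fourth rhombomere and was shown with its promoter, had 1 count over the 2 Dlx2 libraries and 49 over the GFP libraries, or 0 and 0.0289 CPM against 1.26 and 0.727 CPM. The ratio is 0.0128, with a 95% exact counting interval of 0.000318 to 0.0748 (adjusted p = 2.74e-06). Hoxb3, a gene of the hindbrain and the third arch, had 0.0453 and 0.116 CPM in Dlx2 EBs, against 0.487 and 0.646 CPM in GFP EBs, and fell by 2.82 on the log2 scale (SE 0.7, adjusted p = 0.00118). Without Dlx2 replicate 1 the adjusted p of Hoxb3 was 0.0964, and 52.9% of its exon sequence is shared with Hoxb3os on the opposite strand. Hoxb4 had 2.20 and 2.37 CPM in Dlx2 EBs and 2.96 and 2.75 CPM in GFP EBs, with no overlap but an adjusted p of 0.213. Leaving out 1 library at a time, 15 of the 23 day-2 calls were kept every time, and those lost in at least 1 fit were Hoxa2, Hoxa7, Hoxa9, Hoxa10, Hoxb3, Hoxb8, Hoxc4 and Hoxd1. By position, 10 of 11 tested posterior members rose, 8 of 11 central members rose, and of 6 anterior members 3 rose and 2 fell.

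**Figure D3:**
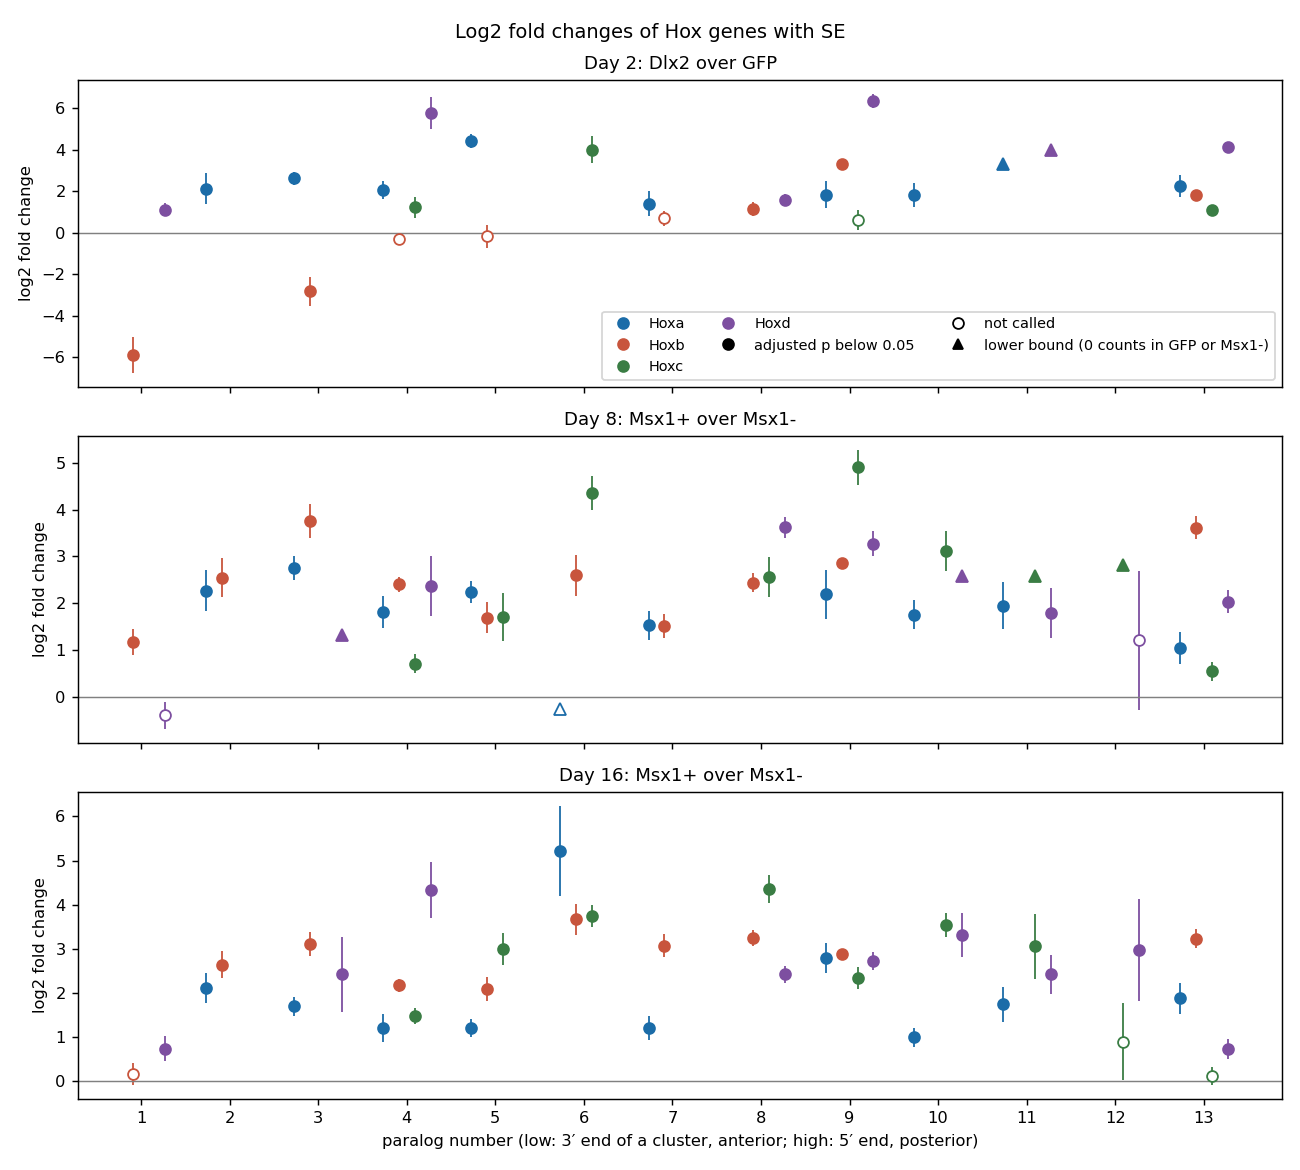
Log2 fold change (y) against paralog number (x) for Dlx2 over GFP EBs at day 2 and Msx1+ over Msx1- cells at days 8 and 16, with bars for 1 SE and filled points for adjusted p below 0.05. Triangles are lower bounds for members with 0 counts in GFP EBs or Msx1- cells. At day 2 Hoxb1 and Hoxb3 lie below 0, and at days 8 and 16 no filled point does.

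Sorting on the Msx1 reporter at day 8 compares Msx1+ with Msx1- cells from induced EBs of the Dlx2 line, and members of all 4 clusters were higher in Msx1+ cells. All 39 passed the filter. By edgeR's quasi-likelihood test 35 were higher, against 30.4% of the 22294 genes tested, and 0 were lower, against 24.3%. At an unadjusted p below 0.05 there were also 35 higher and 0 lower members, and DESeq2 called 0 lower. The median log2 fold change of the 39 was 2.36, or 2.23 with the 5 members without a count in Msx1- cells at their bound, beside 0.06 over all genes tested. Hoxb9 had 28.5 and 30.4 CPM in Msx1+ cells, against 4.15 and 4.03 CPM in Msx1- cells (log2 fold change 2.85 ± 0.12, adjusted p = 3.37e-11). Hoxb4, known for its action in blood stem cells, had 7.34 and 8.42 CPM in Msx1+ cells, against 1.70 and 1.27 CPM in Msx1- cells (log2 fold change 2.40 ± 0.16, adjusted p = 1.18e-08). Hoxb13, a gene of the tail end and the prostate, had 5.71 and 6.13 CPM in Msx1+ cells, against 0.551 and 0.407 CPM in Msx1- cells (log2 fold change 3.61 ± 0.24, adjusted p = 7.79e-09). In these 3 genes both Msx1+ libraries were far above both Msx1- libraries.

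Hoxd8 had 5.88 and 5.99 CPM in Msx1+ cells at day 8, against 0.600 and 0.351 CPM in Msx1- cells (log2 fold change 3.62 ± 0.23, adjusted p = 5.51e-09). Hoxc9, which patterns thoracic motor neurons, was below the 5 CPM used for naming members with every value, and is given because its difference was wide: 3.16 and 3.18 CPM in Msx1+ cells, against 0.0324 and 0.185 CPM in Msx1- cells (log2 fold change 4.90 ± 0.38). It was chosen after its values were seen. The members that did not pass at day 8 included Hoxa6, Hoxd1 and Hoxd12. Hoxd1 had 0.866 and 0.820 CPM in Msx1+ cells and 1.10 and 1.13 CPM in Msx1- cells (adjusted p = 0.252). Hoxc11, Hoxc12, Hoxd3 and Hoxd10 had no count in Msx1- cells and were at least 6.01-fold, 7.05-fold, 2.49-fold and 6.01-fold higher in Msx1+ cells, in the order named, and the call on Hoxd3 was lost with any 1 of the 4 libraries left out.

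At day 16 the same sort separated the Hox genes again, at higher levels in both fractions. By edgeR's quasi-likelihood test 35 of 39 were higher in Msx1+ cells, against 31.1% of all genes tested, and 0 were lower, against 31%, with 35 higher and 0 lower at an unadjusted p below 0.05 and 0 lower by DESeq2. The median log2 fold change was 2.43, beside -0.02 over all genes tested. Of the 15 central members all 15 were higher, of 16 posterior members 14, and of 8 anterior members 6. The members that did not pass included Hoxb1, Hoxc12 and Hoxc13. Hoxb1 had 2.38 and 2.18 CPM in Msx1+ cells and 2.06 and 1.98 CPM in Msx1- cells (adjusted p = 0.564), and Hoxc13 had 3.01 and 3.82 CPM in Msx1+ cells and 2.93 and 3.32 CPM in Msx1- cells, which overlap (adjusted p = 0.61).

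In the Hoxb cluster 7 members above 5 CPM were higher in day-16 Msx1+ cells, with adjusted p from 9.33e-12 (Hoxb9) to 2.95e-07 (Hoxb6). Hoxb9 had 59.3 and 60.9 CPM in Msx1+ cells, against 7.04 and 9.21 CPM in Msx1- cells, a log2 fold change of 2.89 ± 0.11. Hoxb4 had 21.9 and 23.0 CPM in Msx1+ cells, against 4.47 and 5.43 CPM in Msx1- cells (log2 fold change 2.18 ± 0.15). Hoxb8, a target of miR-196, had 10.7 and 11.7 CPM in Msx1+ cells, against 1.23 and 1.13 CPM in Msx1- cells (log2 fold change 3.24 ± 0.19). In these 3 genes every Msx1+ library was above every Msx1- library. Hoxb3 had 12.7 and 9.45 CPM in Msx1+ cells, against 1.70 and 0.851 CPM in Msx1- cells (log2 fold change 3.11 ± 0.27). Hoxb6 and Hoxb7, trunk genes, had 6.66 and 5.72 CPM and 6.35 and 5.82 CPM in Msx1+ cells, against 0.573 and 0.393 CPM and 0.883 and 0.556 CPM in Msx1- cells. Hoxb13 had 10.6 and 7.72 CPM in Msx1+ cells, against 0.916 and 1.03 CPM in Msx1- cells (log2 fold change 3.23 ± 0.22). None of the 7 overlapped between fractions.

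In the Hoxc cluster the 6 named members were the neighbours Hoxc4, Hoxc5, Hoxc6, Hoxc8, Hoxc9 and Hoxc10, with adjusted p from 4.98e-09 (Hoxc6) to 6.52e-06 (Hoxc5). Hoxc6, a gene of the forelimb and mammary level, had 12.1 and 13.1 CPM in Msx1+ cells, against 0.900 and 0.981 CPM in Msx1- cells (log2 fold change 3.74 ± 0.25). Hoxc8, a trunk gene, had 9.69 and 11.5 CPM in Msx1+ cells, against 0.704 and 0.327 CPM in Msx1- cells (log2 fold change 4.36 ± 0.31). Hoxc9 had 10.7 and 11.2 CPM in Msx1+ cells, against 1.78 and 2.52 CPM in Msx1- cells (log2 fold change 2.34 ± 0.24). The groups stood apart in all of these. Hoxc10, a lumbar gene, had 7.44 and 7.53 CPM in Msx1+ cells, against 0.654 and 0.622 CPM in Msx1- cells (log2 fold change 3.55 ± 0.27). Hoxc5 had 7.32 and 7.28 CPM in Msx1+ cells, against 1.15 and 0.671 CPM in Msx1- cells, and Hoxc4 had 9.32 and 8.73 CPM in Msx1+ cells, against 3.48 and 2.93 CPM in Msx1- cells.

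The named Hoxa members at day 16 were Hoxa3, Hoxa5, Hoxa9 and Hoxa10, with adjusted p from 7.07e-06 (Hoxa3) to 0.001 (Hoxa10). Hoxa9, a gene of lumbar patterning and of blood progenitors, had 11.4 and 9.46 CPM in Msx1+ cells, against 1.87 and 1.13 CPM in Msx1- cells (log2 fold change 2.80 ± 0.34). Hoxa3, required for thymus and parathyroid formation, had 9.48 and 8.59 CPM in Msx1+ cells, against 3.03 and 2.52 CPM in Msx1- cells (log2 fold change 1.70 ± 0.22). Both were clear of the Msx1- libraries. Hoxa5 had 5.85 and 7.31 CPM in Msx1+ cells, against 2.72 and 2.96 CPM in Msx1- cells, and Hoxa10, a gene of the uterus and lumbar spine, had 5.72 and 7.90 CPM in Msx1+ cells, against 2.99 and 3.80 CPM in Msx1- cells. The named Hoxd members were Hoxd8, with 13.3 and 14.7 CPM in Msx1+ cells, against 2.23 and 2.96 CPM in Msx1- cells (log2 fold change 2.43 ± 0.19), and Hoxd9, with 11.8 and 9.43 CPM in Msx1+ cells, against 1.44 and 1.77 CPM in Msx1- cells (log2 fold change 2.72 ± 0.21, adjusted p = 3.15e-08). Hoxd13, which led its cluster in Dlx2 EBs, had 3.22 and 3.32 CPM in Msx1+ cells at day 16, against 2.16 and 1.77 CPM in Msx1- cells (log2 fold change 0.73 ± 0.22, adjusted p = 0.0104), with an adjusted p of 0.0917 without Msx1- replicate 2. Among the 23 members with no exon shared with another gene, 20 were higher at each day.

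**Figure D4:**
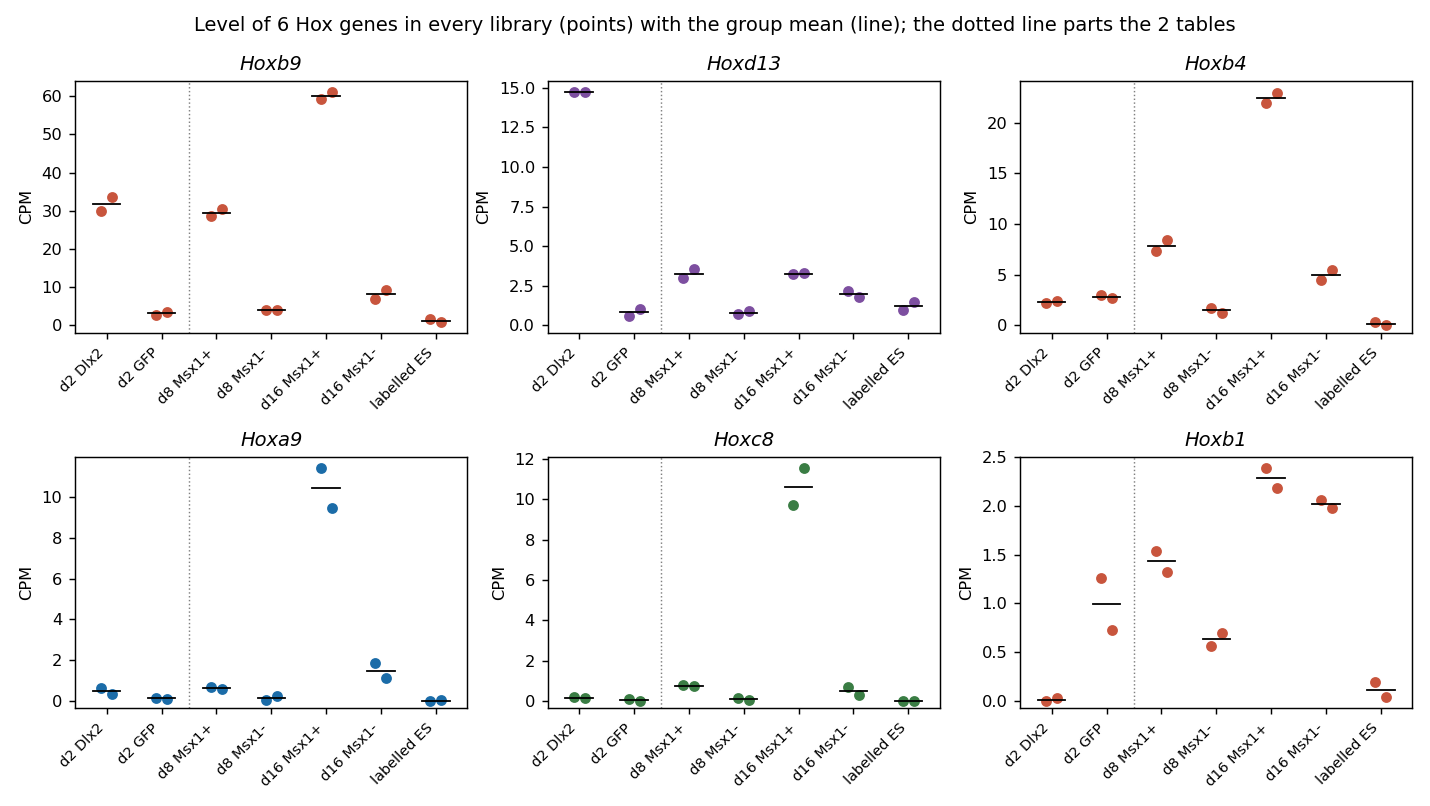
CPM (linear axis) of Hoxb9, Hoxd13, Hoxb4, Hoxa9, Hoxc8 and Hoxb1 in every library, with a line at the mean of 2 and a dotted line between the tables. The tables were normalised separately, so levels are ranked within a table only. In the day-2 table Hoxd13 is higher in Dlx2 EBs, at 14.7 CPM, and Hoxb1 is near 0 there. In the later table Hoxa9 and Hoxc8 are highest in day-16 Msx1+ cells.

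Between day 8 and day 16 the Hox genes rose in both fractions. In Msx1+ cells 35 of 39 were higher at day 16, against 21.1% of all genes tested, and 0 were lower, against 24.8% (edgeR's quasi-likelihood test; 36 higher and 0 lower at an unadjusted p below 0.05, 0 lower by DESeq2). The median log2 change was 2.05, beside -0.03 over all genes tested. In Msx1- cells 31 of 39 were higher at day 16, against 19.7% of all genes tested, and 0 were lower, against 17.8% (32 higher and 0 lower unadjusted, 0 lower by DESeq2), with a median of 1.98, or 1.94 with 4 members at their bound, beside 0.01. Both fractions shared 29 of these genes, 82.9% of the 35 and 93.5% of the 31. With 31 and 35 of all 39 members higher at day 16, these shares are near those of the members as a whole. Among all 39 genes, Hoxc13 did not pass in either fraction, and neither did Hoxd12.

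The widest changes with time in Msx1+ cells were in central and posterior members. Hoxa9 stood at 11.4 and 9.46 CPM at day 16, against 0.698 and 0.593 CPM at day 8 (log2 change 4.02 ± 0.36, adjusted p = 8.93e-07). Hoxc8 stood at 9.69 and 11.5 CPM at day 16, against 0.796 and 0.750 CPM at day 8 (log2 change 3.78 ± 0.29, adjusted p = 6.4e-08). Hoxc5 stood at 7.32 and 7.28 CPM at day 16, against 0.363 and 0.741 CPM at day 8 (log2 change 3.67 ± 0.37, adjusted p = 2.11e-06). These genes were near or under 1 CPM at day 8 and no library of one day overlapped the other. Hoxc10 had 7.44 and 7.53 CPM at day 16 and 0.768 and 0.480 CPM at day 8 (log2 change 3.61 ± 0.26), and Hoxa10 had 5.72 and 7.90 CPM at day 16 and 0.949 and 0.925 CPM at day 8 (log2 change 2.86 ± 0.24). Hoxb6 had 6.66 and 5.72 CPM at day 16 and 0.670 and 1.00 CPM at day 8 (log2 change 2.86 ± 0.32), and Hoxc6 had 12.1 and 13.1 CPM at day 16 and 1.62 and 2.34 CPM at day 8 (log2 change 2.66 ± 0.22).

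The genes already high at day 8 changed less on the log2 scale. Hoxb9 stood at 59.3 and 60.9 CPM in Msx1+ cells at day 16, against 28.5 and 30.4 CPM at day 8 (log2 change 1.03 ± 0.097, adjusted p = 6.43e-07), and Hoxb4 at 21.9 and 23.0 CPM, against 7.34 and 8.42 CPM (log2 change 1.51 ± 0.14). Hoxb13 stood at 10.6 and 7.72 CPM at day 16, against 5.71 and 6.13 CPM at day 8 (log2 change 0.63 ± 0.19, adjusted p = 0.0123), and its adjusted p was 0.209 without replicate 1 of day 16 and 0.0732 without replicate 1 of day 8. Hoxd13 did not pass, with 3.22 and 3.32 CPM at day 16 against 2.97 and 3.54 CPM at day 8, values that overlap (adjusted p = 0.995). The other named members, Hoxa3, Hoxa5, Hoxb3, Hoxb7, Hoxb8, Hoxc4, Hoxc9, Hoxd8 and Hoxd9, had log2 changes between 1.23 (Hoxd8) and 2.20 (Hoxc4). In Msx1- cells Hoxb9 had 7.04 and 9.21 CPM at day 16 against 4.15 and 4.03 CPM at day 8 (log2 change 0.99 ± 0.12, adjusted p = 1.54e-05). Both day-16 libraries were above both day-8 libraries.

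The difference between the Msx1+ and Msx1- fractions changed with time for 10 of the 39 genes in the test of that difference itself, against 28.6% of all genes tested. It was larger at day 16 for 5, against 10.3% of all genes tested, and smaller for 5, against 18.3%, and the median of the 39 was -0.20 beside -0.10 over all genes. It was larger at day 16 for the central genes Hoxb7 (1.57 ± 0.37 on the log2 scale, adjusted p = 0.0054), Hoxc8 (1.79 ± 0.60, adjusted p = 0.0383), Hoxb8 (0.81 ± 0.28, adjusted p = 0.0455) and Hoxc4 (0.78 ± 0.27, adjusted p = 0.0395), and for the anterior gene Hoxd1 (1.15 ± 0.40, adjusted p = 0.0453). It was smaller for Hoxc9 (-2.56 ± 0.49, adjusted p = 0.00122), Hoxd13 (-1.30 ± 0.33, adjusted p = 0.00798), Hoxd8 (-1.19 ± 0.30, adjusted p = 0.00837), Hoxa3 (-1.05 ± 0.34, adjusted p = 0.0329) and Hoxa5 (-1.02 ± 0.31, adjusted p = 0.0232). Hoxc9 stood at 1.78 and 2.52 CPM in Msx1- cells at day 16, against 0.0324 and 0.185 CPM at day 8, a change of 4.35 ± 0.40 on the log2 scale, beside 1.78 ± 0.23 in Msx1+ cells. Its day-8 Msx1- values are few counts, where a molecule may be counted more than once, so the size of its difference is uncertain. Hoxb7 stood at 0.883 and 0.556 CPM in Msx1- cells at day 16, against 0.583 and 0.721 CPM at day 8, which overlap (adjusted p = 0.747), beside a change of 1.71 ± 0.23 in Msx1+ cells. When each library was left out in turn, 3 of these 10 calls were kept every time, those of Hoxb7, Hoxc9 and Hoxd13, and with library size alone in place of TMM scaling 1 gene was called larger and 6 smaller.

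**Figure D5:**
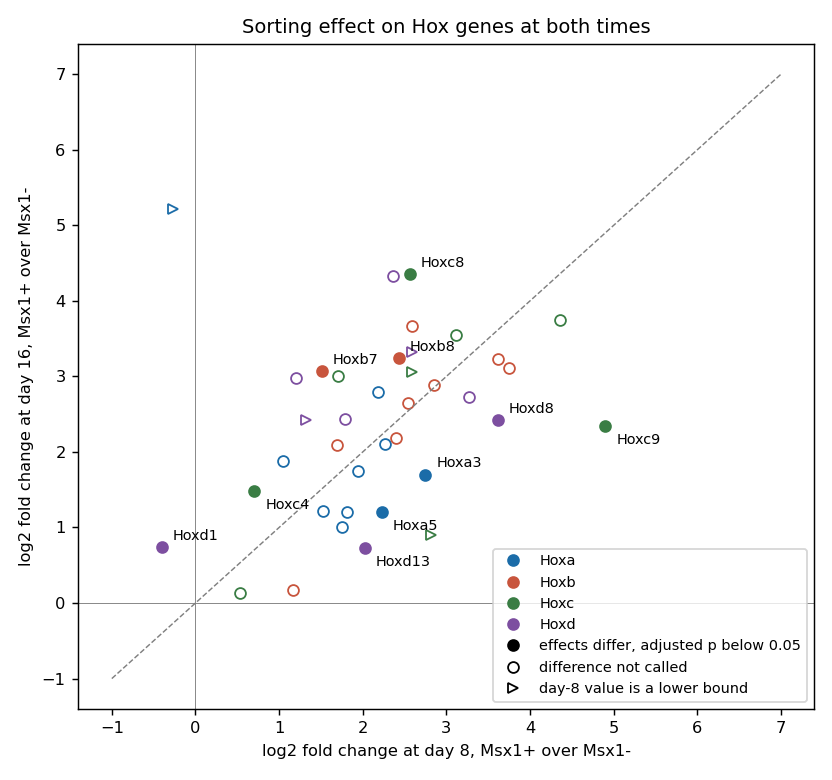
Log2 fold change of Msx1+ over Msx1- cells at day 8 (x) and day 16 (y) for the genes shown, with the line of equal effects dashed. Filled, named points are the 10 genes whose effects differed at adjusted p below 0.05, and triangles have a lower bound at day 8. Hoxb7 and Hoxc8 lie above the line and Hoxc9 and Hoxd13 below it.

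Lists of called genes were compared between comparisons that share no library. Of the 21 genes that rose with Dlx2 at day 2, 20 were higher in Msx1+ cells at day 8, which is 95.2% of the 21 and 57.1% of the 35, and the exception was Hoxd1. Of all 39 members 35 were higher in Msx1+ cells at each day, so a share this high is near that of the members as a whole. With day 16 the shared number was again 20, with Hoxc13 as the exception. The sorts at day 8 and day 16 shared 32 genes, 91.4% of each list, again near the share of the members as a whole. Hoxb3 fell with Dlx2 at day 2 and was higher in Msx1+ cells at days 8 and 16, and Hoxb1 fell at day 2 and was higher in Msx1+ cells at day 8 (1.54 and 1.33 CPM, against 0.567 and 0.702 CPM in Msx1- cells).

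Against the libraries labelled ES, whose Dlx2 level went against their label, the sorted groups share the same pair of reference libraries, so their counts stand side by side. Day-8 Msx1+ cells had 34 members higher, against 34.6% of the 22504 genes tested, and 0 lower, against 26.9%. Day-8 Msx1- cells had 17 higher, against 19%, and 1 lower, against 14.5%. Day-16 Msx1+ cells had 37 higher, against 37.3%, and 0 lower, against 33.7%, and day-16 Msx1- cells had 32 higher, against 28.5%, and 0 lower, against 24.5%. All 3 counts of 0 by edgeR were also 0 at an unadjusted p below 0.05 and by DESeq2. The medians were 4.51, 1.11, 6.51 and 4.09 in that order, or 3.51, 1.07, 5.63 and 2.77 with members at 0 counts at their bound, beside 0.11, 0.03, 0.07 and 0.06 over all genes tested. The gene lower in day-8 Msx1- cells was Hoxc12, with no count there and 15 counts over the libraries labelled ES, at least 5.63-fold lower, with an adjusted p of 0.103, 0.0874 and 0.227 without Msx1- replicate 1, Msx1- replicate 2 and ES replicate 2.

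Hoxb9 had 59.3 and 60.9 CPM in day-16 Msx1+ cells, against 1.60 and 0.980 CPM in libraries labelled ES (log2 fold change 5.54 ± 0.17, adjusted p = 1.08e-14). Hoxd9 had 1334 counts in day-16 Msx1+ cells and none in libraries labelled ES, at least 363-fold higher. Hoxc8 likewise had 1337 counts in day-16 Msx1+ cells and none in libraries labelled ES, at least 364-fold higher. These genes stood among 11 members without a count in libraries labelled ES that could be given a bound in day-16 Msx1+ cells. Hoxc13 did not pass against ES in any of the 4 groups. It had 3.01 and 3.82 CPM in day-16 Msx1+ cells and 2.93 and 3.32 CPM in day-16 Msx1- cells, against 2.53 and 2.45 CPM in libraries labelled ES, close together though without overlap.

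The proteins that bind DNA together with Hox proteins, and the signals and chromatin factors that act on the clusters, were read from lists chosen for their known roles. Beside the counts of each list, 34.1% of all genes tested rose and 33% fell at day 2. In Msx1+ cells 30.4% of all genes tested were higher and 24.3% lower at day 8, and 31.1% and 31% at day 16. Of 7 genes for the Meis and Pbx cofactors, which bind DNA beside Hox proteins, 6 rose with Dlx2 at day 2 (median log2 1.46 beside 0.02 over all genes), and at days 8 and 16 6 were higher in Msx1+ cells and 1, Pbx4, was lower (medians 2.34 beside 0.06, and 2.11 beside -0.02). Meis2 had 35.4 and 35.0 CPM in Dlx2 EBs, against 2.60 and 2.38 CPM in GFP EBs, and at day 16 132 and 139 CPM in Msx1+ cells, against 27.1 and 25.8 CPM in Msx1- cells. Of 17 regulators upstream of the clusters, 9 rose and 4 fell at day 2 (median log2 0.53). Cdx4, a posterior activator of Hox genes, had 26.6 and 26.8 CPM in Dlx2 EBs, against 0.690 and 0.768 CPM in GFP EBs (log2 fold change 5.19 ± 0.16), and in sorted cells it was at or under 2.62 CPM in every library. Cyp26b1, which breaks down retinoic acid, had 16.1 CPM in each Dlx2 library, against 0.203 and 0.364 CPM in GFP EBs, and 37.5 and 39.4 CPM in day-16 Msx1+ cells, against 3.58 and 4.01 CPM in Msx1- cells. Of 16 regulators tested in sorted cells, 9 were higher and 4 lower in Msx1+ cells at day 8, and 11 higher and 5 lower at day 16.

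Polycomb and trithorax genes did not move as 1 group. Of 18 tested at day 2, 7 rose and 6 fell (median log2 0.04), near the 34.1% and 33% of all genes tested. Of 17 tested in sorted cells 6 were higher and 10 lower in Msx1+ cells at each day (medians -0.19 and -0.23). Over all genes tested 30.4% were higher and 24.3% lower at day 8, and 31.1% and 31% at day 16. Jarid2, a partner of the Polycomb complex that methylates histone H3, had 213 and 207 CPM in Dlx2 EBs, against 507 and 506 CPM in GFP EBs, and 135 and 137 CPM in day-16 Msx1+ cells, against 411 and 451 CPM in Msx1- cells. Bmi1, of the other Polycomb complex, had 59.4 and 60.0 CPM in Dlx2 EBs, against 9.58 and 8.73 CPM in GFP EBs, and 41.6 and 44.2 CPM in day-16 Msx1+ cells, against 19.2 and 19.4 CPM in Msx1- cells. The groups did not overlap in either gene. Egr2 of the upstream list and Men1 of the trithorax list were listed at 0 in every library of the later table, while at day 2 Men1 averaged 98.8 ± 1.16 CPM in Dlx2 EBs and 86.6 ± 3.69 CPM in GFP EBs (SD, n = 2 each), so their 0 may not be a measured absence.

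Noncoding transcripts of the clusters moved in both directions. Of 16 such rows, 5 could be tested at day 2, of which 4 rose and 1 fell, against 34.1% and 33% of all genes tested. In sorted cells 10 could be tested, of which 5 were higher and 1 lower in Msx1+ cells at day 8, against 30.4% and 24.3%. At day 16, 6 of them were higher and 1 lower, against 31.1% and 31%. A row could pass the filter through the group where it was high, so these counts are a description. The one that was lower each time was Halr1, a long noncoding RNA beside the 3′ end of the Hoxa cluster, with 3.29 and 3.24 CPM in Dlx2 EBs, against 31.8 and 33.1 CPM in GFP EBs (log2 fold change -3.31 ± 0.11), and 1.00 and 0.873 CPM in day-16 Msx1+ cells, against 16.9 and 16.5 CPM in Msx1- cells (log2 fold change -4.16 ± 0.14). The row of the Mir196a-1 hairpin, between Hoxb13 and Hoxb9, had 3.49 and 2.63 CPM in Dlx2 EBs, against 0.649 and 0.646 CPM in GFP EBs (log2 fold change 2.24 ± 0.30), and 3.90 and 3.71 CPM in day-16 Msx1+ cells, against 1.16 and 1.65 CPM in Msx1- cells (log2 fold change 1.43 ± 0.24). Reads at a hairpin locus come from the longer transcript and do not measure the mature miRNA. Mir196a-2 and Mir196b had no count in any sorted or ES-labelled library, and Mir10a and Mir10b had at most 6 counts in one. Of the genes that flank the clusters, 9 of 16 tested rose and 3 fell at day 2, against 34.1% and 33% of all genes tested. In Msx1+ cells 3 of 15 were higher and 4 lower at day 8, against 30.4% and 24.3%. At day 16, 5 were higher and 6 lower, against 31.1% and 31%. Evx1, the homeobox gene next to the 5′ end of Hoxa, had 4.51 and 4.74 CPM in Dlx2 EBs, against 0.365 and 0.566 CPM in GFP EBs, and Evx2, next to Hoxd13, had 1.27 and 0.897 CPM in Dlx2 EBs and no count in GFP EBs.

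Markers of several cell types moved with the same groups, and their part in the Hox result was not tested. Beside their counts, 34.1% of all genes tested rose and 33% fell at day 2. In Msx1+ cells 30.4% of all genes tested were higher and 24.3% lower at day 8, and 31.1% and 31% at day 16. All 8 pluripotency genes were lower at day 2, with a summed level of 832 to 847 CPM in Dlx2 EBs and 3109 to 3167 CPM in GFP EBs, and all 8 were lower in Msx1+ cells at both days, with 186 to 197 CPM in Msx1+ cells and 2538 to 2542 CPM in Msx1- cells at day 16. Of the 7 markers of lateral plate and limb, 6 were tested and rose at day 2 (53.0 to 54.4 CPM in Dlx2 EBs, 4.52 to 5.72 CPM in GFP EBs, with Hand2 and Tbx5 at 0 in GFP EBs). All 7 were higher in Msx1+ cells at day 8 (243.6 to 253.9 CPM against 15.3 to 15.6 CPM, with Osr1 at 0 in Msx1- cells). At day 16, 6 were higher and 1, Gata4, was lower (759.9 to 765.1 CPM against 180.7 CPM in each Msx1- library). Each day-16 sum was mostly 1 gene. Prrx1 averaged 611 CPM in Msx1+ cells (log2 fold change 5.93). Gata4 averaged 164 CPM in Msx1- cells, against 39.4 CPM in Msx1+ cells (log2 fold change -2.06). At day 8 Prrx1 averaged 176 CPM in Msx1+ cells and Gata4 averaged 12.2 CPM in Msx1- cells. All 8 genes of Hox-negative jaw crest, a list that holds Dlx2 itself, were higher in Msx1+ cells at both days. At day 2, 6 of them were tested and rose. Their sum at day 8 was 1507 to 1689 CPM in Msx1+ cells against 287 to 291 CPM in Msx1- cells. Most of it was the induced gene Dlx2, which alone averaged 1203 CPM in Msx1+ cells and 270 CPM in Msx1- cells. Lhx8 of that list had 17.5 CPM in each day-8 Msx1+ library, against 0.0648 and 0.111 CPM in Msx1- cells.

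The other marker lists were smaller or mixed, and the same shares over all genes tested stand beside their counts. Of 8 genes of the posterior streak and tail bud, 4 rose and 2 fell at day 2 (37.03 to 38.97 CPM in Dlx2 EBs, 10.8 to 13.3 CPM in GFP EBs), 4 were higher and 1 lower in Msx1+ cells at day 8, and 6 were higher and 2 lower at day 16. Of 8 hindbrain and spinal cord genes, 7 rose and 1 fell at day 2, and of 7 tested in sorted cells 5 were higher and 1 lower in Msx1+ cells at day 8, and 4 higher and 2 lower at day 16. Of 6 paraxial mesoderm genes, 4 were tested at day 2, where 3 rose and 1 fell, and 5 were higher and 1 lower in Msx1+ cells at day 8, and 4 higher and 1 lower at day 16. Of 6 forebrain genes, 4 rose and 1 fell at day 2, 4 were higher and 1 lower in Msx1+ cells at day 8, and 3 higher and 2 lower at day 16. Of 6 extraembryonic endoderm genes, 3 were tested at day 2, of which 2 rose, and 1 was higher and 3 lower in Msx1+ cells at day 8, and 4 lower at day 16. Of 5 genes of the mesonephros and intermediate mesoderm, 4 were tested at day 2, where 3 rose and 1 fell, and 3 were higher and 1 lower in Msx1+ cells at day 8, and all 5 higher at day 16.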

How the data were processed

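The files hold raw counts per gene that the authors deposited in 2 tables, 1 for day 2 and 1 for days 8 and 16 with the ES label. Per the submitters' processing notes, the tools were HISAT2 2.1.0, fastp 0.20.0 and DESeq2 1.18.1, on GRCm38. The sources used here name no counting program or annotation. Columns of the later table were assigned to samples by their names. Those of the day-2 table name only the line and were assigned to the induced groups from the series' design text.

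CPM are counts scaled to a common library size. That size is each library's total over the genes that passed the filter, multiplied by its TMM factor. For the later table the CPM use the filter and factors of the fit of all 10 libraries, while the sort and time changes come from the fit of the sorted libraries. CPM per kilobase divides by the union of exons in GENCODE vM21. Fits were made in R 4.3.3 with edgeR 4.0.16 and limma 3.58.1. The day-2 comparison used the whole day-2 table. The sort and time comparisons, and the change of the sorting difference, used the sorted libraries without the ES-labelled ones. Comparisons with the ES label used the whole later table. Each fit had the filterByExpr filter, TMM scaling, robust glmQLFit and a two-sided glmQLFTest. The call was a Benjamini-Hochberg adjusted p below 0.05. The tests covered 18650 genes at day 2, 22294 in the sorted groups and 22504 with the ES label. Each SE was derived from the log2 change and its F statistic (their ratio after taking the root of F). A group at 0 counts gets a floor of 3 counts over the group, and 95% intervals and floors cover counting error only. With 2 libraries a group, an exact permutation test of a single value cannot go below p = 0.333.

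Members named with every value average at least 5 CPM in a group of the comparison and pass its test, or lead their cluster per kilobase in a group. Other members given with values (those that fell, had a group at or near 0 counts, or did not pass) were chosen after their values were seen. The members, lists and tests were chosen with earlier results of these data known. Alternatives were RLE scaling, library size alone, no filter, 1 CPM in 2 libraries, DESeq2 1.42.0, the replicate number as a block, each library left out, and members without shared exons. The scripts were tested on simulated data. The values of 1 member are not reported here; it is included in counts, sums and medians.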

Additional observations from a re-analysis of the deposited data

Results flagged for a closer look

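For 10 of the 39 Hox genes, against 28.6% of all genes tested, the difference between Msx1+ and Msx1- cells was not the same at day 16 as at day 8, by edgeR's test of that difference. That share is not above the one over all genes. The 8 that average at least 5 CPM in a group come first. The values are log2 differences, day 16 minus day 8. Hoxc9 had -2.56 (adjusted p = 0.00122), Hoxd8 had -1.19 (adjusted p = 0.00837), Hoxa3 had -1.05 (adjusted p = 0.0329) and Hoxa5 had -1.02 (adjusted p = 0.0232), so these were less separated by the sort at day 16. The value of Hoxc9 rests on few counts in day-8 Msx1- cells. Hoxc8 had 1.79 (adjusted p = 0.0383), Hoxb7 had 1.57 (adjusted p = 0.0054), Hoxb8 had 0.81 (adjusted p = 0.0455) and Hoxc4 had 0.78 (adjusted p = 0.0395), so these were more separated at day 16. Of the members under 5 CPM, Hoxd13 had -1.30 (adjusted p = 0.00798) and Hoxd1 had 1.15 (adjusted p = 0.0453). Of the 10 calls, those on Hoxb7, Hoxc9 and Hoxd13 were kept with each library left out in turn, and the other 7 were lost at least once.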

How the results depend on the processing

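Counts of called Hox genes are given as higher and lower. With genes required to reach 1 CPM in 2 libraries, day 2 had 13 and 0, and day-8 Msx1- cells against ES had 0 lower. DESeq2 called 16 higher and 2 lower at day 2. Restricted to the 23 members without shared exons, which by itself lowers a count, day 2 had 13 and 1, the sort 20 higher at each day, time 19 in Msx1+ and 17 in Msx1- cells, and the ES contrasts 18 (day-8 Msx1+), 9 (day-8 Msx1-), 21 (day-16 Msx1+) and 16 (day-16 Msx1-). The change of the sorting difference with time, 5 larger and 5 smaller in the report, had 1 larger with library size alone, 2 with no filter, 3 with DESeq2, 2 with the replicate block and 2 in the fit of all 10 libraries, which had 3 smaller. The cause was not tested.

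With each library left out in turn, day 2 had 15 to 18 higher and 1 to 3 lower, the sort 30 to 33 higher at day 8 and 31 to 33 at day 16, the change of the sorting difference 1 to 4 larger and 3 to 4 smaller, time 29 to 31 in Msx1+ and 26 to 28 in Msx1- cells, and the ES contrasts 33, 15 to 18 (0 to 1 lower), 36 to 37 and 27 to 30. The deviations of equally numbered libraries correlated between -0.0465 and 0.117. Libraries of a shared origin with little shared variation would also give values near these, so whether the numbers pair the samples stays undecided. With the replicate number as a block, day 2 had 20 higher and 2 lower, the sort 35 at each day, and time 34 in Msx1+ and 30 in Msx1- cells.

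For named members outside the change of the sorting difference, 533 of 535 alternative values kept direction and call. These members were picked for passing the main test with a mean of at least 5 CPM, so this does not speak for the other called members. Within it 79 of 120 did and 41 kept the direction only, and 0 values reversed in either. Scaling by library size alone put the all-gene median at 0.20 (day 2) and 0.22 (day-8 sort) on the log2 scale, against 0.02 and 0.06 with TMM. Outside day-16 Msx1+ cells, where 20 members reached 5 CPM in each library, at most 4 members of 39 did so in a library, and 2 libraries limit what can be detected at such levels.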
